A study of Homo sapiens with 4 samples.

Results

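The genes described here repair and copy DNA. They were taken from the authors' deposited table of skipped exons by gene symbol, using a pattern for the Fanconi anaemia and BRCA, RAD, XRCC, ERCC, MSH, MLH, PMS, DNA polymerase, MCM, RFC, PARP and DNA ligase families and for ATM and ATR. The pattern matched 440 of the 31408 events of the table, which lie on 387 of 27483 distinct exons and in 91 of 9172 genes. By function, 84 of the 91 genes fell into 10 roles. The other 7 symbols fit the letters of the pattern but were kept apart, among them MSH5-SAPCD1, MCM3AP, MCM3AP-AS1, RAD54L2, ERCC6L and XRCC6BP1.

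The samples were 4 clones of HEK293T, a human embryonic kidney cell line, 2 with the genotype WT and 2 with the genotype RBFOX2 KO. RBFOX2, also called RBM9, is a splicing factor that binds the RNA form of GCATG. All clones descend from cells given Cas9 and guides on both sides of the gene, and each was grown from a sorted cell and genotyped by PCR, so each group is only 2 clones. The RNA was total RNA without ribosomal RNA, read with strand-specific libraries. RBFOX2 itself had 0 events in the table, so this file holds no check of the deletion.

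The table compares a first with a second set of libraries, and its headings do not say which set is the knockout. Differences below are therefore given between sets and never between genotypes. The difference in inclusion level is the share of transcripts that keep the exon in the first set minus that in the second. A value of 0.1 stands for 10 percentage points, and a negative value means more inclusion in the second set. An event passed when the rMATS FDR in the authors' deposited table was under 0.05 and the difference was at least 0.1 in size. Inclusion in each library is not given, because no label ties the library columns to a clone.

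Homologous recombination repairs broken DNA by copying an intact sister strand, with BRCA1 and BRCA2 at its centre. The Fanconi anaemia genes recognise and open crosslinks between strands, nucleotide excision repair cuts out bulky lesions, and mismatch repair corrects copying errors. The MCM and RFC proteins unwind DNA and load the sliding clamp for the polymerases. Leaving out a coding exon whose length is no multiple of 3 shifts the reading frame, so pairs of exons left out together can keep a frame that either exon alone would break.

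Exons whose sequences carry the main results follow, read 5′ to 3′ on the gene's strand from GENCODE 29 transcripts matched by exon and intron length. Positions are those of the table, on hg19 per the submitters' processing notes. The first 4 are coding exons that passed in the same direction as another exon scored over the same outer flanks: the BRCA1 exons at chr17:41249261-41249306 and chr17:41247863-41247939, and the RAD51D exons at chr17:33445520-33445638 and chr17:33434385-33434466, all on the minus strand.
BRCA1 46-nt exon: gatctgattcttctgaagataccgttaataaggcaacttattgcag
BRCA1 77-nt exon: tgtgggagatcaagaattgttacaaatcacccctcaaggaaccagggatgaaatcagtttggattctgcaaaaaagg
RAD51D 119-nt exon: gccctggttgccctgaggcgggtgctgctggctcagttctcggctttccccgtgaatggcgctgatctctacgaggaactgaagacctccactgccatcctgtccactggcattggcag
RAD51D 82-nt exon: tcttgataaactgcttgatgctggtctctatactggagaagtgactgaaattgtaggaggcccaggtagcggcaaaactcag

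The next 3 are neighbouring coding exons of ERCC1, exons 7, 8 and 9 of 10 in the matched transcript, at chr19:45918119-45918218, chr19:45917221-45917292 and chr19:45916935-45917003 on the minus strand. They are shown because all 3 passed.
ERCC1 100-nt exon: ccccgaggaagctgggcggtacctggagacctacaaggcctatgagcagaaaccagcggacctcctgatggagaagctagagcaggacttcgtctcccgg
ERCC1 72-nt exon: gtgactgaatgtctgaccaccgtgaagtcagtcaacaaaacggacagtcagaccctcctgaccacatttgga
ERCC1 69-nt exon: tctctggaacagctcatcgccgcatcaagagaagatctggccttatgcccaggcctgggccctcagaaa

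The 3 exons that passed and hold GCATG, the element RBFOX2 binds, are next, with the element in capitals. They are the coding exons of MCM9 at chr6:119149090-119149293 and POLQ at chr3:121200419-121200659, both on the minus strand, and a window of an untranslated FANCI exon at chr15:89788987-89789070 on the plus strand.
MCM9 204-nt exon: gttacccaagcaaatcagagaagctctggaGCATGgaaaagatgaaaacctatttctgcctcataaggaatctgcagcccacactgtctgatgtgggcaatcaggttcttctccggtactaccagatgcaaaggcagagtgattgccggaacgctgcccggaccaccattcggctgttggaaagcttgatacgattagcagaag
POLQ 241-nt exon: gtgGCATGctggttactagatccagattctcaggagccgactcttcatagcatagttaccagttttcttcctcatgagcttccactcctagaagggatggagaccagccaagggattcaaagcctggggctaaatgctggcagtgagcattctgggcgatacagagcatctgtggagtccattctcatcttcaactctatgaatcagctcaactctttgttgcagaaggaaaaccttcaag
FANCI 84-nt exon, window: aagatgaggatgGCATGgagggaagataag

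Among the 440 events of these genes, 21 passed, which is 4.77%, beside 5.15% of all events. The first set had more inclusion in 11 and the second in 10, where the table as a whole had 2.77% and 2.38% of its events. Counted by exon, 20 of 387 passed (5.17%), with 5.73% over the table. Each direction had 10 of them, 2.58% of the exons, where 3.08% and 2.65% of all exons passed. Of the 91 genes, 10 held an event that passed (beside 13.7% of all genes), and 81 held none. With no minimum difference, 25 events passed (5.68%, against 6.12%), and at an unadjusted p under 0.05 there were 58 (13.2%, against 12.0%). These shares lie near those of the table, so the family as a whole does not stand out by number. The median size of the difference was 0.049 for these genes and 0.048 for the table.

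**Figure D1:**
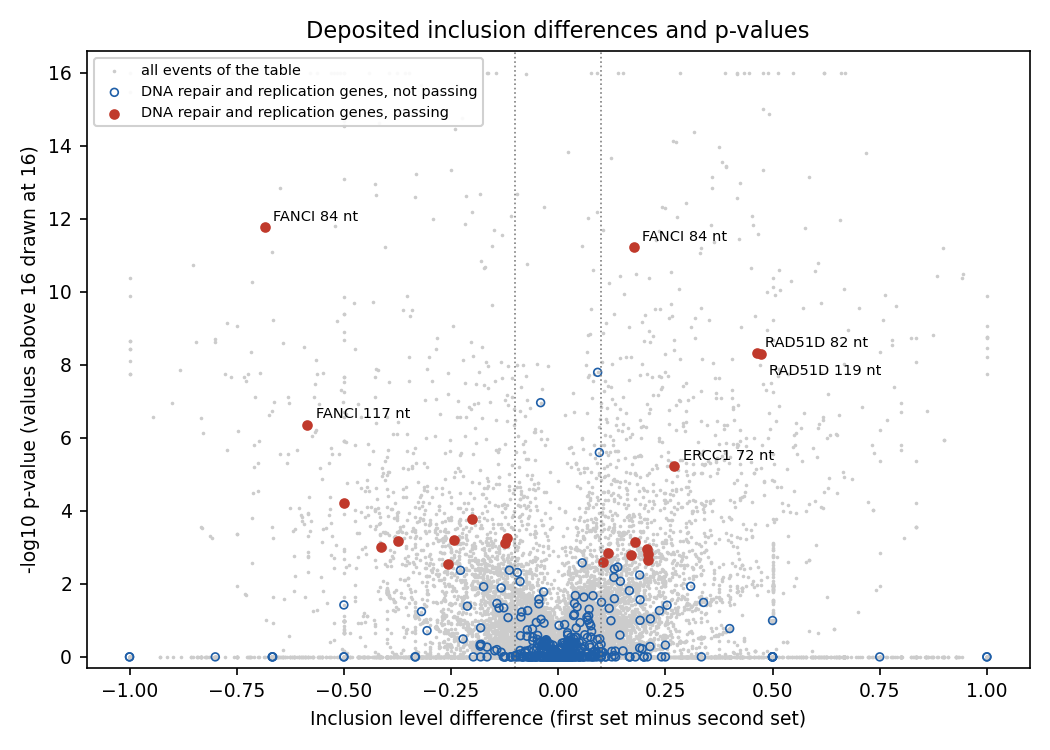
Each point is an event of the authors' deposited table, with the inclusion level difference on the x axis (first set minus second set, from -1 to 1) and minus log10 of the rMATS p-value on the y axis. Grey points are all 31408 events, open circles the events of DNA repair and replication genes that did not pass and filled circles the 21 that did; dotted lines mark differences of 0.1, and the passing events with an FDR under 0.001, in FANCI, RAD51D and ERCC1, are labelled.

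The Fanconi anaemia and BRCA genes held the most exons that passed, 8 of 77 (10.4%, beside 5.73% of all exons). Inclusion was higher for 3 of them in the first set, and for the other 5 it was higher in the second. The 8 include a BRCA1 pair and a FANCI pair whose exons share a skipping junction, so they are not 8 separate measurements. The difference from the table was not tested. FANCI, which works with FANCD2 as a clamp on DNA at stalled forks, had 4 of the 8 exons. With 17, it also had the most events of any gene here. Its 84-nt exon, which is untranslated in the matched transcript, differed by -0.685 (rMATS FDR 5.65e-10 in the authors' deposited table). Just before it, the 117-nt exon at chr15:89788426-89788542 differed by -0.585 (FDR 3.13e-05). Both were thus kept more in the second set, when scored against the same outer exons. The 84-nt exon also passed in the other direction, at 0.176 (FDR 1.76e-09), in the event that takes the 117-nt exon as its upstream neighbour; the skipping junction there is an inclusion junction of the 117-nt event. Exons that passed in both directions numbered 9 in the table, and this was the only one among these genes. Its direction thus depends on the flanking exon, and its 2 other events, at -0.148 and -0.034, did not pass. The 117-nt exon had 3 further events, at -0.5, -0.667 and 0.167, none of which passed.

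Further along FANCI, 2 coding exons were more included in the first set. The 165-nt exon at chr15:89837064-89837228, number 23 of 38 and in frame, differed by 0.115 (rMATS FDR 0.0271 in the authors' deposited table). Both forms of this event leave out the 180-nt exon 24. The event of exon 24 shares a junction with it, differed by -0.008 and did not pass. The other coding exon, of 185 nt at chr15:89849241-89849425, differed by 0.179 (FDR 0.0161). A 188-nt form of the latter, with 3 more bases at its start, differed by 0.06 (FDR 0.234) and did not pass. Both forms were scored over the same outer flanks. They share the skipping junction and the downstream inclusion junction, so they are not separate measurements. The bases that set the forms apart are in capitals below; the longer exon starts at 89849238 on the plus strand.
FANCI 188-nt exon, first bases: AAGaggcctcttctcaggcaaccctaccaa

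BRCA1, which starts recombination at broken ends, had 2 exons that passed out of 9. The 46-nt exon differed by -0.257 (rMATS FDR 0.0472 in the authors' deposited table) and the 77-nt exon by -0.123 (FDR 0.0167). Both are coding, exons 8 and 9 of 24 in the matched transcript, and both were kept more in the second set. Scored against the other exon of the pair as a neighbour, each differed by 0.036 and did not pass. BRIP1, the helicase that binds BRCA1, had 1 exon in each direction. Its 166-nt untranslated exon at chr17:59939271-59939436 differed by -0.12 (FDR 0.0126), and its 330-nt coding exon at chr17:59763197-59763526, number 19 of 20 and in frame, by 0.209 (FDR 0.0292). FANCA, with 16 events, had none that passed, and its differences ran from -0.085 to 0.334.

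RAD51D, a gene of homologous recombination, held all 3 exons that passed among the 51 of that role (5.88%, beside 5.73% of all exons). The 119-nt exon differed by 0.473 (rMATS FDR 7.17e-07 in the authors' deposited table) and the 82-nt exon by 0.464 (FDR 6.7e-07). Both were more included in the first set, against the same outer exons. In its 2 other events the 119-nt exon differed by 0.144 and 0.309 and did not pass. A 179-nt exon between them, scored over the same outer exons, differed by 0.025 and did not pass. The exon downstream of the 82-nt exon has 2 forms. Its 74-nt form, at chr17:33434007-33434080 and annotated as untranslated, differed by -0.414 (FDR 0.0205), and its 135-nt form, which ends the same way and has 61 more bases at its start, by -0.228 (FDR 0.0643). The junction that skips this exon also counts as inclusion in the event of the 82-nt exon, so these differences of opposite sign share reads. Only the shorter form passed, and the 2 forms share their outer flanks and skipping junction, so they are not separate measurements. The longer form lies at chr17:33434007-33434141 on the minus strand and is shown with those 61 bases in capitals.
RAD51D 135-nt exon: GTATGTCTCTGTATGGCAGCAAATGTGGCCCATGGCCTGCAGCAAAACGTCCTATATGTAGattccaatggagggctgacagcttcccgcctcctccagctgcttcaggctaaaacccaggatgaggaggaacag

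No event of RAD51B, RAD51C, RAD52 or XRCC3 passed. The differences of RAD51C stayed between -0.039 and 0.043 over 8 events.

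**Figure D2:**
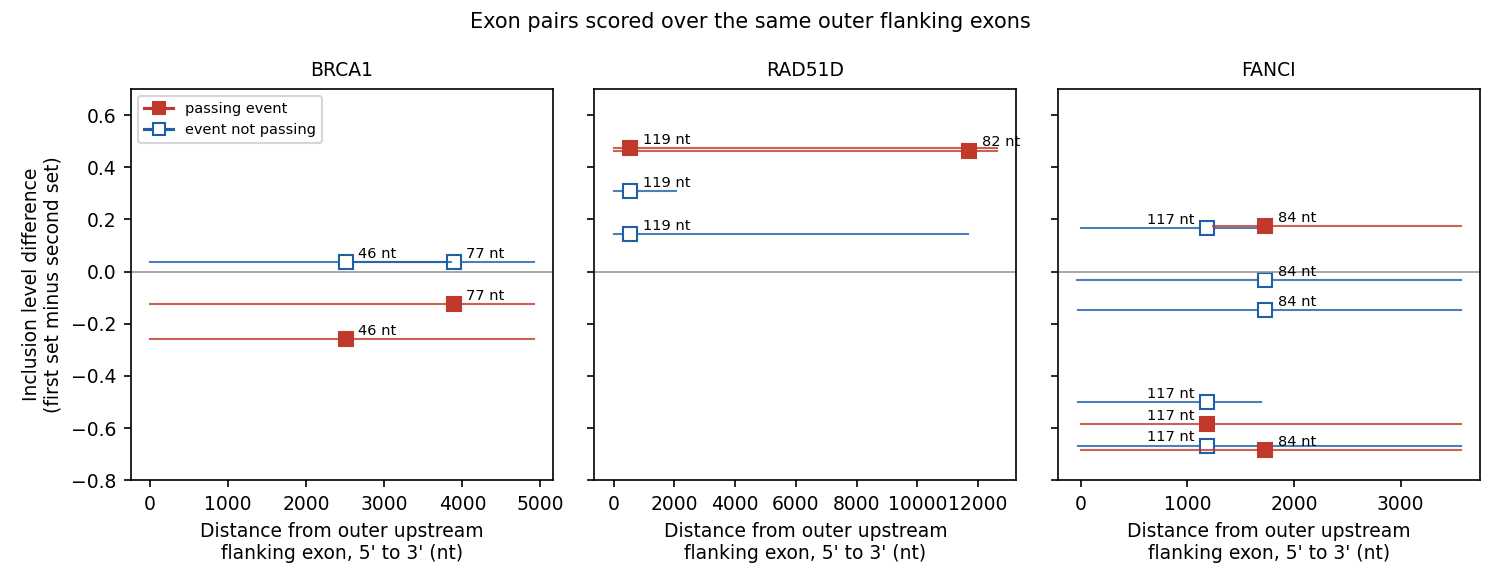
Exon pairs of BRCA1, RAD51D and FANCI by distance from the outer upstream exon in nt (x axis) and inclusion level difference, first set minus second set (y axis). Each square is an exon in an event, its line runs between the flanking exons of that event, and filled squares passed: both exons of a pair lie on the same side of 0 over the outer flanks, with BRCA1 and FANCI below it and RAD51D above.

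In BRCA1, RAD51D and FANCI, 2 exons each were scored against the same outer neighbours and both passed in the same direction. Summed, the BRCA1 pair is 123 nt, which is 41 codons, while neither exon alone is a multiple of 3. The FANCI pair is untranslated. In RAD51D the skipping junction also spans the 179-nt and 135-nt exons, so it does not leave out the scored exons alone and no frame is given for it; the 82-nt exon with these flanks had only an annotated target of nonsense-mediated decay as its match. GENCODE 29 holds the skipping junction in 4 BRCA1, 2 RAD51D and 3 FANCI transcripts. For the BRCA1 and FANCI pairs no transcript matched the scored inclusion form, which keeps either exon without the other. Such pairs made up 6 of the 20 exons that passed here, while over the table there were 66 such sets of at least 2 exons with 132 of 1575 exons (8.38%), and 65 of the 66 had a single direction. The exons of a pair share the reads across that junction, so they are not separate measurements. Counting a pair once left 17 exons, an alternative chosen after seeing the data. No share of the table counted this way is given, so the 17 cannot be set beside the 5.73% of all exons.

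Nucleotide excision repair had 3 of 33 exons that passed (9.09%, beside 5.73% of all exons). All lay in ERCC1, the partner of the XPF nuclease that cuts beside the lesion. The 72-nt exon differed by 0.271 (rMATS FDR 0.000294 in the authors' deposited table). Upstream, the 100-nt exon differed by 0.208 (FDR 0.0221), and the 69-nt exon downstream by -0.244 (FDR 0.0145). The last event takes the exon before the 100-nt exon as its upstream neighbour. Its inclusion junction is the skipping junction of the 100-nt event, so these differences of opposite sign share reads. The skipping junction of the 72-nt event is in turn an inclusion junction of the 100-nt event, so the 3 exons are not separate measurements. The lengths of the 72-nt and 69-nt exons are multiples of 3 and that of the 100-nt exon is not. Both forms of the 100-nt and 69-nt events leave out the 72-nt exon, so no frame is given for these events. ERCC2, a helicase of the same pathway, had a 78-nt exon at 0.19 (FDR 0.0809) and ERCC8 a 218-nt exon at -0.114 (FDR 0.0641), and neither passed.

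Among the DNA polymerases 2 of 70 exons passed (2.86%, beside 5.73% of all exons), both in POLQ, the polymerase of error-prone end joining. Its 241-nt exon, number 20 of 31, differed by -0.2 (rMATS FDR 0.00487 in the authors' deposited table), and its 185-nt exon at chr3:121178897-121179081, number 26, by 0.209 (FDR 0.0391). The exons moved in opposite directions, and neither length is a multiple of 3. A 103-nt exon of POLD1, the catalytic subunit of polymerase delta, had an FDR of 0.000142 but a difference of 0.096, just under the minimum. POLL, a repair polymerase, had 12 events from -0.8 to 0.5 and none passed.

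Replication licensing and clamp loading had 2 of 52 exons that passed (3.85%, beside 5.73% of all exons), both more included in the first set. They lie in MCM9 and MCM8, which form a helicase used in recombination. The 204-nt exon of MCM9, number 10 of 13 and in frame, differed by 0.17 (rMATS FDR 0.0306 in the authors' deposited table). MCM8 had an 86-nt exon at chr20:5943920-5944005 on the plus strand, which differed by 0.104 (FDR 0.0438), close to the minimum. None passed in MCM2, MCM3, MCM4, MCM5, MCM6 or MCM7, the subunits of the replicative helicase. Those of MCM6 stayed between -0.002 and 0.024 over 7 events.

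Mismatch repair (16 exons), end joining and ligation (25), checkpoint kinases and clamps (25), the PARP family (18) and cohesin (1) had no exon that passed. Within the checkpoint, PARP and ligation roles, the lowest rMATS p in the authors' deposited table was 0.0255 for a 109-nt exon of the checkpoint clamp gene RAD1 (difference 0.131), 0.0273 for a 121-nt exon of PARP11 (0.191) and 0.0469 for a 1156-nt exon of LIG1, the replicative ligase (0.119). The cohesin gene RAD21 had a single event, with a difference of 0.006 and p of 1. ATM and ATR, the kinases that signal damage, had 9 and 7 events, from -0.133 to 0.208 and from -0.1 to 0.092. A miss does not show equal inclusion, since p was 1 in 210 of the 440 events (47.7%) and in 51.4% of the table.

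**Figure D3:**
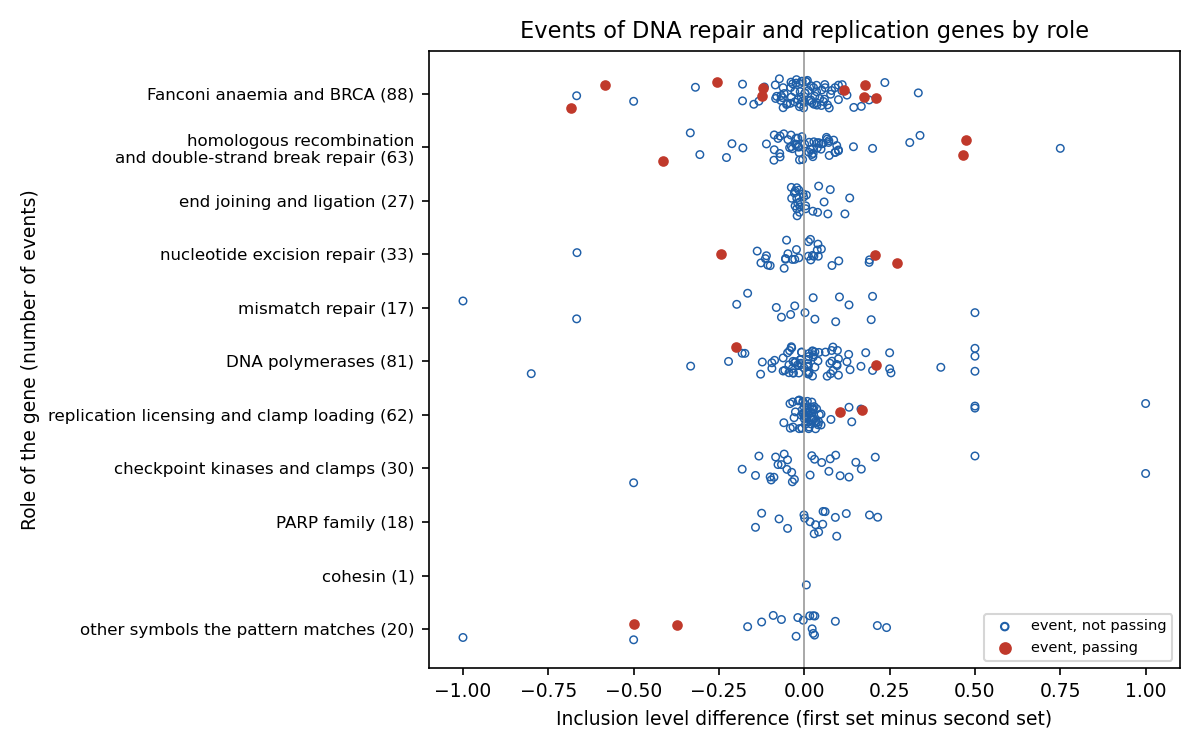
Inclusion level difference, first set minus second set (x axis), of each of the 440 events, by the role of the gene (y axis, number of events in brackets). Filled circles are events that passed and open circles those that did not: the passing events lie in Fanconi anaemia and BRCA, homologous recombination, nucleotide excision repair, polymerase and replication licensing genes and in 2 other symbols.

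Of the 19 exons of symbols outside the roles, 2 passed (10.5%, beside 5.73% of all exons), both kept more in the second set. MSH5-SAPCD1, a read-through transcript of MSH5 and its neighbour, had a 48-nt exon at -0.5 (rMATS FDR 0.00216 in the authors' deposited table), at chr6:31729595-31729642 on the plus strand. It shares exons with MSH5, so reads cannot be assigned to either gene with certainty. MCM3AP-AS1, an RNA antisense to MCM3AP, had a 103-nt exon at -0.374 (FDR 0.0148), at chr21:47656138-47656240 on the plus strand.

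Around the thresholds, 4 events had an FDR under 0.05 with a smaller difference, among them that of POLD1 above, a 151-nt exon of MCM3 at -0.041 (rMATS FDR 9.5e-06 in the authors' deposited table) and a 125-nt exon of FANCD2 at 0.056 (FDR 0.045). Another 11 events in 8 genes had an FDR from 0.05 to 0.2 with a difference of at least 0.1, 7 with more inclusion in the first set and 4 with more in the second. They include 3 exons of MCM8, of 141, 31 and 151 nt, at 0.139, 0.131 and 0.166, all more included in the first set. The first 2 share a skipping junction. The skipping junction of the 151-nt event is an inclusion junction of the 141-nt event, so the 3 exons are not separate measurements. The other events, beside those of RAD51D, ERCC2 and ERCC8 above, were POLE2 78 nt (0.13), BRCA2 64 nt (0.145), POLQ 148 nt (-0.174) and FANCG 203 nt (-0.133). Of 22 events of at least 0.5 in size, 3 passed and 17 had a p of 1, beside 296 and 1459 of 1885 such events in the table.

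**Figure D4:**
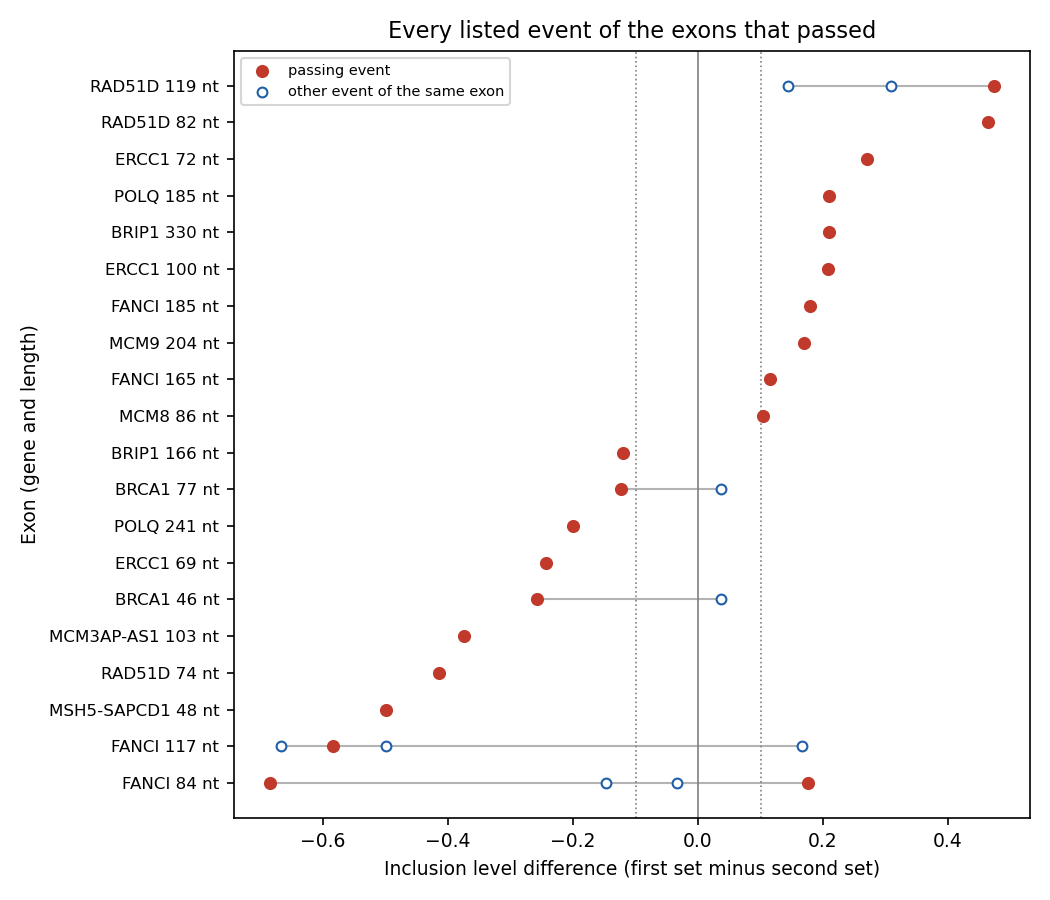
Inclusion level difference, first set minus second set (x axis), of every listed event of the 20 exons that passed (y axis, gene and length in nt), with dotted lines at differences of 0.1. Filled circles are events that passed and open circles other events of the same exon; 15 exons had 1 event, and the FANCI and BRCA1 pairs had events on both sides of 0.

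In structure, exons of these genes had a median length of 119 nt, beside 117 nt over the table, and ranged from 27 to 1906 nt. Exons of at most 51 nt made up 4.65%, against 7.2%. Lengths divisible by 3 were found in 133 of 387 (34.4%, Wilson 95% interval 29.8 to 39.2, counting error only), against 40.8% of all other exons. Among exons that lie in coding sequence the shares were 36.0% and 44.8% (whole table). These shares are a description, and their difference was not tested. A GENCODE 29 match was found for 386 of the exons, and 74.1% of these were coding, against 68.4%. A transcript without the exon was annotated for 44.2%, against 51.1% of all other exons. Of the 20 exons that passed, 14 were coding (70.0%), beside 59.9% of the matched exons that passed over the table. In 9 of those 14 the length was no multiple of 3. The other 5 (35.7%) stand beside 55.0% divisible by 3 among the coding exons that passed over the table. The 14 are few and include the BRCA1 and RAD51D pairs, which are not separate measurements, and this difference was not tested.

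GCATG was searched on the exon's own strand and lay in 44 of the 386 matched exons (11.4%), beside 11.5% over the table. Of the 44, 3 passed (6.82%), against 161 of 3102 (5.19%). The MCM9 exon was more included in the first set and the POLQ exon in the second. The introns, where RBFOX2 sites often lie, were not searched.

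Other genes of the same pathways whose symbols the pattern does not match were taken from a list of 126, of which 109 had events. Of their 404 events 16 passed (3.96%, against 5.15% of the table), on 14 of 362 exons (3.87%, against 5.73%) in 9 genes (8.26%, against 13.7%). APTX, EME1 and CHTF18 had only exons more included in the first set, RECQL, DSCC1, MNAT1 and GEN1 only in the second, and TDP1 and GINS1 both. APTX, which removes failed ligation products, had a 47-nt exon at 0.375 (rMATS FDR 6.09e-12 in the authors' deposited table). EME1, a partner of the MUS81 nuclease, had an 82-nt exon at 0.407 (FDR 1.18e-05), and CHTF18, a clamp loader subunit, a 98-nt exon at 0.167 (FDR 6.21e-05). The helicase gene RECQL had a 203-nt untranslated exon at -0.4 (FDR 0.00103) and DSCC1, a further clamp loader subunit, a 135-nt exon at -0.154 (FDR 0.00484). TDP1, which frees trapped topoisomerase, had a 223-nt untranslated exon at 0.303 (FDR 0.000923) and, with other flanking exons, at -0.375 (FDR 0.00521). Its direction, like that of the FANCI 84-nt exon, depended on the flanks.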

How the data were processed

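RNA-seq of 2 wild-type and 2 RBFOX2 knockout HEK293T clones gave 1 table of skipped exons, the output of rMATS with junction reads. The submitters' processing notes name STAR 2.7.3a and hg19; the rMATS version and annotation are not given in the sources used here. Per the file headers, the authors deposited a p-value and an FDR for each event, and the FDR equals a Benjamini-Hochberg adjustment over all 31408 events. The inclusion level difference, a score from -1 to 1, was deposited by the authors; its sign was read as first minus second set, the rMATS convention. The effective lengths per form, other values in nt, were also deposited by the authors. The 6 columns of values per library match no sample label and were not used, so sequencing depth, junction coverage and variation among clones are not given. No filter on low values was applied.

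Events passed at an FDR under 0.05 and a difference of at least 0.1. Events were joined to exons by position, and an exon took its direction from the passing event with the lowest p-value. Exons were matched to GENCODE 29 by gene identifier, exon length and intron lengths. Of 30629 matched events, 204 had the same start in GRCh38, so no GRCh38 coordinate is printed. The genes and lists were chosen with earlier results of these data known, so no list was tested. Exons were named if they passed, if they had an FDR under 0.05 with a smaller difference or an FDR up to 0.2 with a difference of at least 0.1, or if they had the lowest p of a role. Genes with the most events and the 6 pathway genes with the lowest p were also named. Some results that meet this rule are not reported here. The call step was tested on simulated data. The tools were pandas 2.3.3 under Python 3.11.15, with matplotlib 3.10.9 for plots, scipy 1.17.1 for intervals and numpy 2.4.6.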

Additional observations from a re-analysis of the deposited data

How the results depend on the processing

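The counts depend on the FDR limit. At an FDR under 0.01, 8 events (1.82%, against 3.49% of the table) and 7 exons of the DNA repair and replication genes passed. With a Bonferroni correction over the whole set of tests, 5 events (1.14%, against 1.5%) and 4 exons passed, and 3 genes of the pathway list. The 20 exons that passed split at these limits into 7 that still passed and 13 that did not, and into 4 and 16. With an FDR under 0.1, no minimum difference or a minimum of 0.2, the events numbered 27 (6.14%, against 6.19%), 25 (5.68%, against 6.12%) and 14 (3.18%, against 3.54%) and the exons 26, 24 and 14. Leaving out the 7 symbols outside the roles, which held 20 of the 440 events, gave 19 events that passed, beside 5.15% of all events. For the exon and gene counts at these changed limits no share over the table is given, so they are not set against it. Of the 20 exons, 15 had 1 event, so their median is the same value. Among the other 5 the median over events kept its sign, but fell under the minimum of 0.1 in size for the FANCI 84-nt exon (-0.091) and the BRCA1 77-nt exon (-0.0435). Shares divisible by 3 were 36.0% in coding exons and 35.2% with 1 exon per gene. No paired analysis was possible because the library columns carry no replicate number that matches a title; leaving out single clones was not run for the same reason. The p-values rest on 2 sets of clones whose identity the table does not state, and junction coverage, which limits each difference, was not used here.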
